A study of Glycine max with 12 samples.

Results

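Transcript levels were compared between 2 groups of RNA-seq libraries from the wild-type soybean (Glycine max) cultivar Thorne, 2 libraries labelled R5 and 2 labelled V5, which are 4 of the 12 libraries in the series. The libraries were picked by their titles, and the comparison and gene lists were chosen with earlier results of these data known. Thorne is recorded as wild type, with no treatment. The count columns of the 2 libraries titled Thorne V5 are headed Gm20, however, a name that the titles use for the edited lines. Their genotype as given here therefore rests on the titles. The other 8 libraries came from a Gm20 single mutant and a Gm20/Gm10 double mutant, lines edited in the gene underlying a major seed protein locus and, in the double mutant, also in its paralog, and they served to estimate the spread between replicates and to show the markers' levels in other libraries with these stage labels. The tissue of every library is labelled seed, collected from field-grown plants. On the usual scale of soybean development, R5 marks the onset of seed filling, whereas V5 plants carry leaves and no pods yet, so a V5 label and a seed label do not describe the same plant part. Each library drew on seeds of several plants, per the labels' protocols. Whether replicates came from separate plants or plots is not stated, and p-values therefore measure the spread between these libraries, which may be technical.

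A soybean seed fills its cotyledons with storage globulins, the 11S glycinins and the 7S beta-conglycinins, and with oil, and it also accumulates lipoxygenases, protease inhibitors and a lectin. The genes of these products are switched on in the embryo by seed regulators such as LEC1 and ABI3. Leaves, pods and other vegetative parts make Rubisco, the enzyme that fixes carbon dioxide, and can hold vegetative storage proteins, a nitrogen reserve that is strongly expressed where there is little demand from seeds. The files give gene IDs without names, so the names used here are those under which these IDs are generally known in soybean genetics. Of 74 IDs taken for 12 gene lists, 66 have a symbol in the RefSeq gene table, and for 64 of them the chromosome in the ID is the chromosome of that symbol. The exceptions are the WRI1 homologs on chromosomes 8 and 15, whose symbols are exchanged, and they are therefore called by chromosome.

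The 2 libraries labelled R5 held 30855181 and 32113550 counts, and the 2 labelled V5 held 20410270 and 20519847. Replicates correlated across abundant genes at a Pearson r of 0.962 for R5 and 0.971 for V5 (log2 scale, 13586 and 4823 genes). Their log2 ratios spread 3.55 and 2.91 times more widely than counting noise, and each pair was counted as 2 libraries. Levels are given as CPM, counts scaled to a common library size with TMM factors, which were 1.23 and 1.26 for the R5 libraries and 0.766 and 0.662 for the V5 libraries. With total counts alone as the scale, the median log2 fold change of all genes tested shifted by 0.80 towards R5. The sets also differ in depth, and stage and any batch in sequencing cannot be told apart. Among the other libraries, the single mutant V5 replicate 2 stood apart, with 0.966% of its counts in the seed markers described below against 15.7% to 16.1% in the other mutant V5 libraries. It entered the estimate of spread, and without it 21812 genes were called rather than 14558.

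The libraries labelled V5 carried the transcripts of a filling seed, and those labelled R5 did not. The 10 genes fixed as seed markers (5 glycinins, 3 seed lipoxygenases, a Kunitz trypsin inhibitor and the seed lectin) summed to 4267860 and 5508483 counts in the V5 libraries, 20.9% and 26.8% of all counts, and to 13 and 9 counts in the R5 libraries. Of these, 9 were tested and all 9 were higher at V5 (edgeR quasi-likelihood test, Benjamini-Hochberg adjusted p under 0.05, here termed called). Over all 38559 genes tested, 37.8% were called, 20.9% higher at R5 and 16.9% higher at V5. The 9 vegetative markers (2 vegetative storage proteins, 3 Rubisco small subunits and 4 Rubisco activases) went the other way. They made up 2.65% and 2.14% of counts at R5 and 0.0307% and 0.0234% at V5, and all 9 were called higher at R5. The 4 leghemoglobin genes fixed as nodule markers had 0 counts in all 4 libraries. The data thus go against the seed label of the R5 libraries, where none of the seed markers passed 4 counts in a library. Of the 9 markers detected at V5, 2 had 0 counts in both R5 libraries. They also go against a vegetative stage for the V5 libraries. The stage names are used below only as labels. In bulk RNA, fewer cells of a type and less RNA per cell cannot be told apart.

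Leaving out a library changed these counts. The number of seed markers called was 8 without R5 replicate 1, 8 without R5 replicate 2, and 9 without either V5 replicate. The number of vegetative markers called was 4 without R5 replicate 1, 8 without R5 replicate 2, 3 without V5 replicate 1 and 2 without V5 replicate 2. Their values did not overlap between the groups in any of the 9. With 2 libraries per group this is a weak criterion, and its share over all genes tested was not taken. It was also met by 11661 called genes averaging at least 1 log2 CPM.

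**Figure D1:**
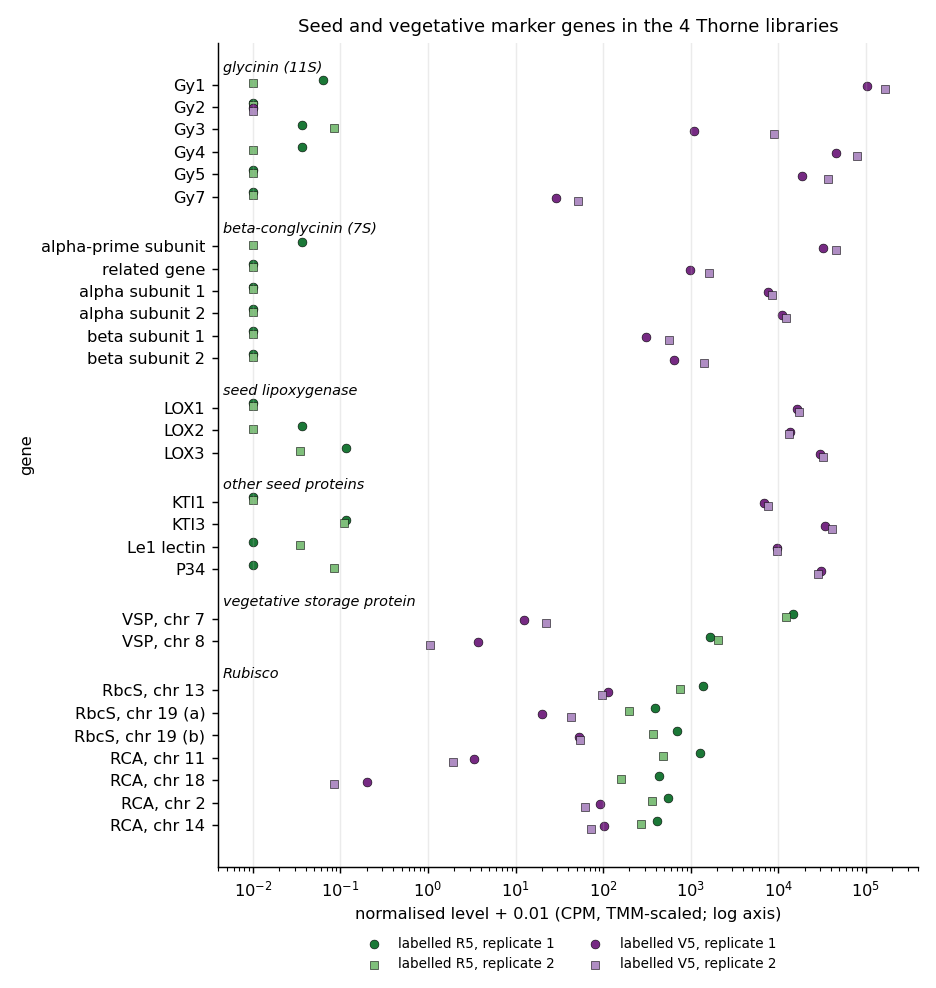
Level of each seed and vegetative gene (rows) in the 4 Thorne libraries, in TMM-scaled CPM plus 0.01 on a log axis; circles are replicate 1 and squares replicate 2, green for libraries labelled R5 and purple for V5. All seed genes but Gy2 (0 counts in all 4 libraries) lie far to the right at V5 and near the axis floor at R5, and the vegetative storage protein and Rubisco genes lie further right at R5.

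Glycinins, the 11S globulins, took the largest share of counts at V5 among the 12 lists. Together the 6 glycinin IDs took 12.95% and 19.3% of the counts in the V5 replicates (16.1% ± 4.51, SD, n = 2) and 4 and 3 counts in all at R5. Glyma.03G163500 (Gy1) had 2 and 0 counts at R5 and 1623671 and 2256750 at V5, or 103791 and 166041 CPM. The ratio of V5 to R5 was 5210000-fold (95% counting interval 1440000 to 43000000), with an adjusted p of 0.0151 in edgeR. This single gene held 7.96% and 11.0% of all counts in the V5 libraries.

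Glyma.10G037100 (Gy4) stood at 45503 and 79602 CPM at V5 with 1 and 0 counts at R5, a ratio of 4810000-fold (95% counting interval 864000 to 190000000). Glyma.13G123500 (Gy5) had 0 counts at R5 and 18574 and 37265 CPM at V5, which makes it at least 365000-fold higher against a floor of 3 counts per library. Glyma.19G164800 (Gy7), the member read least among those detected, had 0 counts at R5 and 28.6 and 51.2 CPM at V5, at least 521-fold higher. All of these were called, with edgeR adjusted p of 0.00332, 0.00285 and 0.0098. Glyma.03G163700, listed as Gy2, had 0 counts in every Thorne library and was not tested. Glycinin genes are closely related copies, and how reads matching several of them were counted is not given in the sources used here, so the split between members is uncertain.

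The V5 replicates differed among themselves in glycinin. Each of the 5 detected members was higher in V5 replicate 2, by 1.60 to 8.21 times. The widest gap was in Glyma.19G164900 (Gy3), at 1093 and 8967 CPM, against 0.0263 and 0.0743 CPM at R5 and a log2 fold change of -16.47 (SE 2.55, edgeR adjusted p 0.00199). Seed lipoxygenases in the same libraries differed by only 0.969 to 1.06 times. For Gy1 the call was lost without R5 replicate 1 (adjusted p 0.0898 in edgeR) and without R5 replicate 2 (0.0958).

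Beta-conglycinins, the 7S globulins, took 4.06% and 4.66% of counts at V5, and 1 and 0 counts at R5. All 6 IDs were called higher at V5. The alpha-prime subunit gene Glyma.10G246300 reached 32526 and 45636 CPM with 1 and 0 counts at R5, a ratio of 3030000-fold (95% counting interval 544000 to 120000000) and an edgeR adjusted p of 0.00202. The alpha subunit genes Glyma.20G148300 and Glyma.20G148400 stood at 7581 and 8599 CPM and 10966 and 12438 CPM, both with 0 counts at R5, at least 106000-fold and 153000-fold higher. The beta subunit genes were read less, with 307 and 569.6 CPM for Glyma.20G146200 and 653 and 1434 CPM for Glyma.20G148200, and they also had 0 counts at R5. Glyma.10G246500, a neighbour of the alpha-prime gene, stood at 985 and 1635 CPM with 0 counts at R5. The V5 replicates differed by 1.13 times for both alpha genes, while the beta genes were 1.86 and 2.20 times higher in replicate 2.

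The 3 seed lipoxygenases, which oxidise linoleic and linolenic acid and give raw soybean its beany flavour, took 4.62% and 4.15% of counts at V5, against 5 and 1 counts at R5. Glyma.13G347600 (LOX1) had 0 counts at R5 and 16309 and 17213 CPM at V5, at least 219000-fold higher. Glyma.13G347500 (LOX2) stood at 13552 and 13138 CPM and Glyma.15G026300 (LOX3) at 30416 and 32323 CPM. LOX3 had 4 and 1 counts at R5 and a log2 fold change of -18.80 (SE 2.57). All 3 were called higher at V5, with edgeR adjusted p of 0.00499, 0.0017 and 0.00117.

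The other abundant seed proteins followed the globulins. The Kunitz trypsin inhibitor gene Glyma.08G341500 (KTI3) was at 33823 and 41034 CPM at V5 and at 0.105 and 0.099 CPM at R5, a log2 fold change of -18.42 (SE 3.03, edgeR adjusted p 0.00254). Its relative Glyma.01G095000 (KTI1) was at 6877 and 7624 CPM with 0 counts at R5, at least 94700-fold higher. The seed lectin gene Glyma.02G012600 (Le1) stood at 9757 and 9704 CPM at V5 with 0 and 1 counts at R5. The gene of the major allergen P34, Glyma.08G116300, stood at 31111 and 28335 CPM at V5 with 0 and 3 counts at R5. All 4 were called, and the V5 replicates differed by 0.911 to 1.21 times. The embryo-specific urease gene Glyma.05G146000 (Eu1) was at 1787 and 1911 CPM at V5 with 1 and 0 counts at R5, a ratio of 145000-fold (95% counting interval 26000 to 5720000, edgeR adjusted p 0.000218).

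Among the seed regulators, the transcription factor genes LEC1 and ABI3, which direct embryo maturation, were called higher at V5. Glyma.07G268100 (LEC1) had 0 counts at R5 and 38 and 30.9 CPM at V5, at least 450-fold higher, and Glyma.17G005600, the other LEC1 gene, had 0 and 1 counts at R5 and 145 and 105 CPM at V5. The ABI3 genes Glyma.08G357600 and Glyma.18G176100 stood at 546 and 644 CPM and 376 and 499 CPM at V5, with 1 or 2 counts in each R5 library. The edgeR adjusted p of these 4 genes was 0.000113, 0.000143, 6.48e-05 and 9.06e-05. Glyma.16G050500 was listed as FUS3, a name with no symbol in the RefSeq table to set it against, and it was at 98.3 and 102 CPM at R5 and 58.5 and 57 CPM at V5, a log2 fold change of 0.80 (SE 0.30) that was not called (edgeR adjusted p 0.0632). On the scale of total counts its adjusted p was 0.0129, higher at R5.

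The sugar exporters SWEET10a and SWEET10b, which move sucrose towards the embryo, had 1 count at most in the R5 libraries. Glyma.15G049200 (SWEET10a) had 0 counts at R5 and 114 and 127 CPM at V5, at least 1570-fold higher (edgeR adjusted p 0.0305). Glyma.08G183500 (SWEET10b) had 0 and 1 counts at R5 and 343 and 309 CPM at V5, a ratio of 25700-fold (95% counting interval 4610 to 1010000, edgeR adjusted p 0.00932). The call for SWEET10a was lost without any one of the 4 Thorne libraries, with adjusted p of 0.111 and 0.112 without R5 replicate 1 or 2 and 0.0835 and 0.0867 without V5 replicate 1 or 2, and it was 0.0511 with the replicate number as a block. The call for SWEET10b was lost without R5 replicate 1 (0.0722) and R5 replicate 2 (0.0662).

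The raffinose pathway genes, which make the oligosaccharides that legume seeds store, did not move as one. Glyma.06G179200 (RS2, raffinose synthase) was at 0.499 and 0.371 CPM at R5 and 29.2 and 33.6 CPM at V5, a log2 fold change of -6.16 (SE 0.70, edgeR adjusted p 0.000563). Its paralog Glyma.05G003900 (RS3) was at 21 and 19.9 CPM at R5 and 9.59 and 13.5 CPM at V5, and was not called (edgeR adjusted p 0.428). Neither the RS2 nor the RS3 name had a symbol in the RefSeq table to set it against. The stachyose synthase gene Glyma.19G217700 was at 4.41 and 3.84 CPM at R5 and 13.4 and 10.8 CPM at V5 and was not called (edgeR adjusted p 0.0794). Of the 11 genes of the list of seed sugar genes and regulators, with Eu1, 8 were called higher at V5, 0 higher at R5, and 3 were not called. Over all genes tested, 16.9% were called higher at V5 and 20.9% higher at R5. In the single mutant V5 replicate 2, RS3, stachyose synthase and the gene listed as FUS3 were at 1.52, 64.7 and 108 CPM. In the other mutant V5 libraries they were at 5.36 to 14.5, 12 to 14.2 and 57.6 to 63.8 CPM.

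Of 11 oil genes, 7 were called higher at V5, 0 higher at R5 and 4 were not called. Over all genes tested, 16.9% were called higher at V5 and 20.9% higher at R5. The median log2 fold change of the oil genes was -2.50 against 0.14 over all genes tested. Glyma.20G111000 (FAD2-1B), a seed desaturase that makes linoleic acid, was at 1.39 and 0.965 CPM at R5 and 1789.5 and 2366 CPM at V5, a log2 fold change of -10.78 (SE 1.87, edgeR adjusted p 0.00317). Its partner Glyma.10G278000 (FAD2-1A) was at 1.13 and 0.223 CPM and 433 and 608 CPM, with a log2 fold change of -9.58 (SE 2.08). The stearoyl-ACP desaturase gene Glyma.14G121400 (SACPD-C), whose product makes oleic acid, was at 0.289 and 3.04 CPM at R5, where the replicates differed widely, and at 748 and 1206 CPM at V5, a log2 fold change of -9.19 (SE 2.27).

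The WRI1 homologs, transcription factors that switch on fatty acid synthesis, had log2 fold changes of -3.82 (SE 0.57) for Glyma.15G221600 and -4.19 (SE 0.96) for Glyma.08G227700. Glyma.15G221600 was at 1.08 and 0.792 CPM at R5 and 16.6 and 9.93 CPM at V5. The DGAT1 genes, which add the last acyl chain of the oil molecule, had smaller fold changes. Glyma.13G106100 (DGAT1A) went from 8.57 and 9.58 CPM at R5 to 47.2 and 55.3 CPM at V5 (log2 fold change -2.50, SE 0.22, edgeR adjusted p 0.000201), and Glyma.17G053300 (DGAT1B) from 3.76 and 3.51 CPM to 7.99 and 9.56 CPM (log2 fold change -1.27, SE 0.31, edgeR adjusted p 0.0129). DGAT1B was not called with total counts alone (-0.46, adjusted p 0.296).

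The omega-3 desaturases, which turn linoleic into linolenic acid in many tissues, were read at both stages and none was called. Glyma.14G194300 (FAD3A) was at 16.9 and 19 CPM at R5 and 81 and 83 CPM at V5, and Glyma.18G062000 (FAD3C) at 37.5 and 21.4 CPM and 53.2 and 54.7 CPM. Glyma.02G227200 (FAD3B) was at 57.9 and 62.5 CPM and 65.1 and 77.6 CPM, with a log2 fold change of -0.25 (SE 0.77) that became 0.57 with total counts alone. The gene of the thioesterase that releases palmitic acid, Glyma.05G012300 (FATB1A), had a log2 fold change of -0.36 (SE 0.48), and 0.45 with total counts alone. Their edgeR adjusted p was 0.254, 0.671, 0.823 and 0.587. In the single mutant V5 replicate 2, which entered the estimate of spread, they were at 0.422, 0.127, 6.58 and 145 CPM. In the other mutant V5 libraries they were at 77.6 to 104, 57.6 to 65.2, 56.6 to 66.6 and 39.2 to 43.7 CPM. The lack of a call for these genes therefore does not show equal levels. In the oil list the calls were lost for FAD2-1A without R5 replicate 2 (edgeR adjusted p 0.0638), for SACPD-C without R5 replicate 1 (0.0852), for the chromosome 8 WRI1 homolog without R5 replicate 2 (0.0713), and for DGAT1B without R5 replicate 1 (0.0672), R5 replicate 2 (0.0805) or V5 replicate 2 (0.082).

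**Figure D2:**
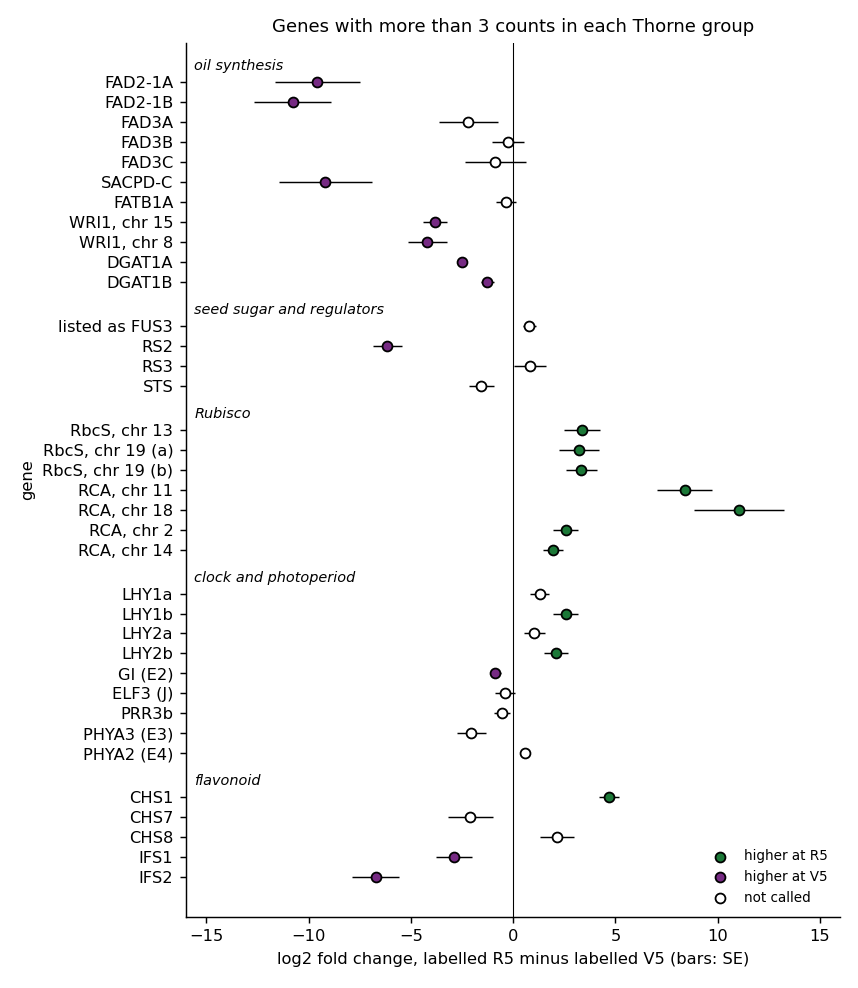
Log2 fold change, labelled R5 minus labelled V5, with its SE (bars), for oil, sugar, regulator, Rubisco, clock and flavonoid genes that had more than 3 counts in each Thorne group; filled points were called and open points were not. FAD2-1A, FAD2-1B, SACPD-C, RS2 and IFS2 lie furthest to the V5 side, at -6.16 or beyond, and the Rubisco activase genes on chromosomes 11 and 18 furthest to the R5 side.

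At R5 the gene read most was Glyma.07G014500, a vegetative storage protein gene. It had 559386 and 497579 counts at R5 and 194 and 304 counts at V5, or 14699 and 12316 CPM against 12.4 and 22.4 CPM, a log2 fold change of 9.60 (SE 1.33, edgeR adjusted p 0.00122). The related gene on chromosome 8, Glyma.08G200100, was at 1672 and 2078 CPM at R5 and 3.71 and 1.03 CPM at V5, with a log2 fold change of 9.62 (SE 1.96, edgeR adjusted p 0.00621). For both genes the lowest R5 library lay far above the highest V5 library. Together these genes took 2.02% and 1.81% of the R5 counts and 0.00123% and 0.00155% of the V5 counts. The call for Glyma.08G200100 was lost without V5 replicate 2 (adjusted p 0.0613).

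All 7 Rubisco genes were called higher at R5, with a median log2 fold change of 3.32. The small subunit genes, whose product completes the Rubisco enzyme, had similar fold changes. Glyma.13G046200 was at 1399.9 and 765 CPM at R5 and 114 and 96.7 CPM at V5, and Glyma.19G046800 at 693 and 367 CPM and 52.4 and 53.9 CPM. Glyma.19G046600 was at 393 and 196 CPM and 19.8 and 43.3 CPM. Their log2 fold changes were 3.36 (SE 0.89), 3.32 (SE 0.76) and 3.22 (SE 0.96), with edgeR adjusted p of 0.018, 0.0101 and 0.0293.

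Rubisco activase, which frees the enzyme of bound sugar phosphates, showed a wide range. Glyma.11G221000 was at 1265 and 484 CPM at R5 and 3.32 and 1.91 CPM at V5, and Glyma.18G036400 at 434 and 162 CPM and 0.192 and 0.0736 CPM, the latter from 3 and 1 counts. Their respective log2 fold changes were 8.38 (SE 1.32) and 11.05 (SE 2.21). The activase genes on chromosomes 2 and 14 kept substantial levels at V5. Glyma.02G249600 was at 546 and 363 CPM at R5 and 91.1 and 61.7 CPM at V5, and Glyma.14G067000 at 414 and 268 CPM and 103 and 73 CPM, with log2 fold changes of 2.57 (SE 0.62) for the former and 1.95 (SE 0.50) for the latter. The edgeR adjusted p of the 4 genes was 0.00215, 0.00574, 0.0122 and 0.0165.

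The R5 replicates differed in these genes: each of the 7 was higher in R5 replicate 1, by 1.51 to 2.68 times. The groups did not overlap in any of the 7, a weak criterion with 2 libraries per group. Calls were lost without R5 replicate 1 for 5 of the 7 (adjusted p 0.0819 for Glyma.13G046200, 0.122 for Glyma.19G046600, 0.0545 for Glyma.19G046800, 0.0642 for Glyma.02G249600 and 0.0936 for Glyma.14G067000). Without R5 replicate 2 the call was lost for Glyma.19G046600 (0.0531). Without V5 replicate 1 it was lost for all but Glyma.11G221000 (0.0509 to 0.169), and likewise without V5 replicate 2 (0.0566 to 0.123). In each of these fits the log2 fold change stayed above 0, and the lowest was 1.61, for Glyma.14G067000 without R5 replicate 1.

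Clock and photoperiod genes, which time daily expression and flowering, held 12 listed genes, of which 9 passed the filter on low counts. Among these 9, 2 were called higher at R5 and 1 higher at V5, beside 37.8% called over all genes tested. The morning clock genes of the LHY family were the ones higher at R5. Glyma.07G048500 (LHY1b) was at 111 and 89.3 CPM at R5 and 19.9 and 13.7 CPM at V5 (log2 fold change 2.57, SE 0.62, edgeR adjusted p 0.0127). Glyma.03G261800 (LHY2b) was at 322 and 249 CPM and 86.4 and 49.1 CPM (log2 fold change 2.07, SE 0.59, edgeR adjusted p 0.0239). Their relatives Glyma.16G017400 (LHY1a) and Glyma.19G260900 (LHY2a) had log2 fold changes of 1.29 (SE 0.48) and 1.04 (SE 0.53) and were not called (0.0612 and 0.153). Both passed the threshold with total counts alone (0.0129 and 0.0274).

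Glyma.10G221500 (E2, the GIGANTEA gene of the evening clock) was at 60.5 and 51.4 CPM at R5 and 107 and 96.8 CPM at V5, a log2 fold change of -0.87 (SE 0.25, edgeR adjusted p 0.025), and it was -0.07 and not called with total counts alone. The clock genes Glyma.04G050200 (ELF3) and Glyma.12G073900 (PRR3b) had log2 fold changes of -0.40 (SE 0.50) and -0.54 (SE 0.40), and 0.42 and 0.27 with total counts alone, none called. The phytochrome A genes Glyma.19G224200 (E3) and Glyma.20G090000 (E4), light receptors that delay flowering in long days, had values of -2.04 (SE 0.71) and 0.59 (SE 0.21) and lay just outside the threshold (edgeR adjusted p 0.0505 and 0.051). E4 passed it with total counts alone (0.00157). The flowering genes E1, FT2a and FT5a had at most 6 counts in any Thorne library and were not tested. Without one of the 4 Thorne libraries the adjusted p of LHY2b was 0.0596 to 0.156 and that of E2 0.0831 to 0.157. That of LHY1b was 0.056 without R5 replicate 1, 0.0594 without V5 replicate 1 and 0.0965 without V5 replicate 2.

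Of 6 flavonoid genes 5 were tested, of which 2 were called higher at V5, 1 higher at R5 and 2 were not called. Over all genes tested, 16.9% were called higher at V5 and 20.9% higher at R5, and 5 genes are too few to set against these shares. Isoflavone synthase, which makes the isoflavones of soybean seed, was called higher at V5 for both genes. Glyma.13G173500 (IFS2) was at 0.342 and 0.767 CPM at R5 and 65.5 and 52.1 CPM at V5 (log2 fold change -6.71, SE 1.15, edgeR adjusted p 0.00299), and Glyma.07G202300 (IFS1) at 33.1 and 32.7 CPM and 210.1 and 277 CPM (log2 fold change -2.89, SE 0.90, edgeR adjusted p 0.0338). Chalcone synthase, the entry enzyme of the pathway, was called higher at R5 for Glyma.08G109400 (CHS1), at 15.1 and 19.9 CPM against 0.959 and 0.368 CPM (log2 fold change 4.69, SE 0.48, edgeR adjusted p 0.000363).

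Glyma.11G011500 (CHS8) was at 33.2 and 33.7 CPM at R5 and 7.8 and 7.36 CPM at V5, and Glyma.01G228700 (CHS7) at 8.15 and 6.68 CPM and 37.5 and 25.9 CPM, and neither was called (0.0731 and 0.16 in edgeR). CHS8 passed the threshold with total counts alone (0.0124). In the single mutant V5 replicate 2, which entered the estimate of spread, CHS8 and CHS7 were at 0.591 and 1.52 CPM. In the other mutant V5 libraries they were at 9.12 to 10.5 and 41.2 to 47.7 CPM. Chalcone synthase genes are close copies, so reads may have been split between them. Glyma.08G062000 (ANR1), of the proanthocyanidin branch, had at most 5 counts in a library and was not tested. The call for IFS1 was lost without any one Thorne library (0.083 to 0.149).

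The edited genes of the series were read at V5 and hardly at R5 in the libraries titled Thorne. Glyma.20G085100, the chromosome 20 gene, had 1 and 2 counts at R5 and 16 and 17 at V5, a ratio of 29.5-fold (95% counting interval 9.26 to 150, edgeR adjusted p 0.0185). Its paralog Glyma.10G134400 had 0 counts at R5 and 41 and 28 at V5, at least 30.6-fold higher (edgeR adjusted p 0.00142). Without any one Thorne library the call for Glyma.20G085100 was lost (0.061 to 0.121).

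The sets also differed in how evenly counts were spread over genes. In the V5 libraries 229 and 66 genes held 50% of all counts, and in the R5 libraries 2774 and 2844 did. The 100 genes read most held 45.7% and 52.1% at V5 and 11.5% and 10.8% at R5. A few genes thus took up much of the V5 reads, more so in V5 replicate 2. Of the 10 genes read most at V5, 7 belonged to the lists above. Of the 10 read most at R5, 2 belonged to the lists, both of them vegetative storage protein genes. Counts of at least 1 were found for 41831 and 42455 genes at R5 and for 39765 and 38977 at V5, where the libraries held fewer counts in total.

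**Figure D3:**
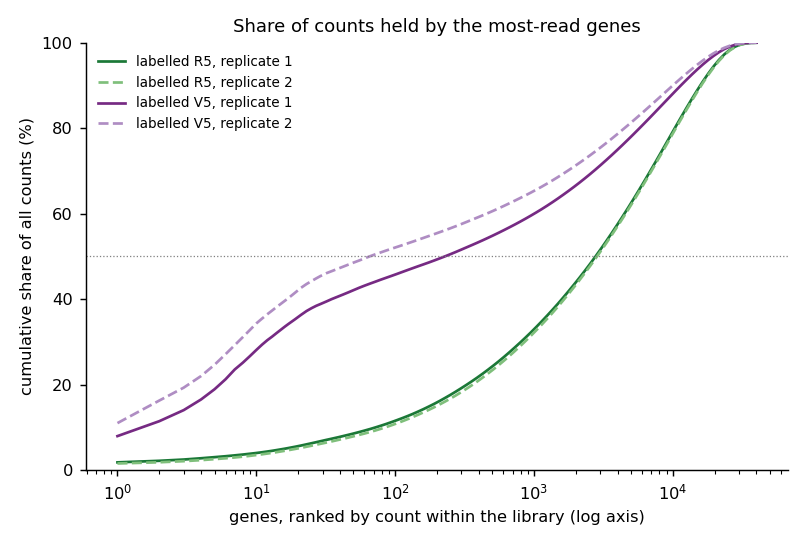
Cumulative share of all counts (%) against genes ranked by count within each library (log axis), 1 line per Thorne library; the dotted line marks 50%. The V5 lines reach it at 229 and 66 genes and the R5 lines at 2774 and 2844.

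Over all genes, 14558 of 38559 differed, 8040 higher at R5 and 6518 higher at V5. Of these, 12888 differed by 2-fold or more and 3044 by 32-fold or more (1609 higher at R5 and 1435 higher at V5). In CPM by total count, 26084 genes were above 1 CPM in all 4 libraries. A further 1145 were above 1 CPM in both R5 libraries and at 0.1 CPM or less in both V5 libraries, and 643 showed the opposite. On this scale the median log2 fold change lay 0.80 further towards R5 than with TMM, so these 2 numbers depend on the scale. Ranking by fitted change favours genes with 0 counts in a group, whose fitted values depend on the prior count. The 8 largest fitted changes towards R5 were all in genes with 0 counts at V5. On chromosome 15 lie 4 of these 8 IDs, close together in number, so they need not be 4 separate observations. Of the 8 largest towards V5, 6 were in genes with 0 counts at R5, 4 of the IDs lie on chromosome 13, and 4 were in the lists above.

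The direction split depended on the scale. With total counts alone 18642 genes were called, 15545 higher at R5 (40.3% of genes tested) and 3097 higher at V5 (8.03%), so that 83.4% of calls were higher at R5 against 55.2% with TMM. The number called was 7477 without R5 replicate 1, 7813 without R5 replicate 2, 7227 without V5 replicate 1 and 7017 without V5 replicate 2, and 23306 with the 4 Thorne libraries alone.

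**Figure D4:**
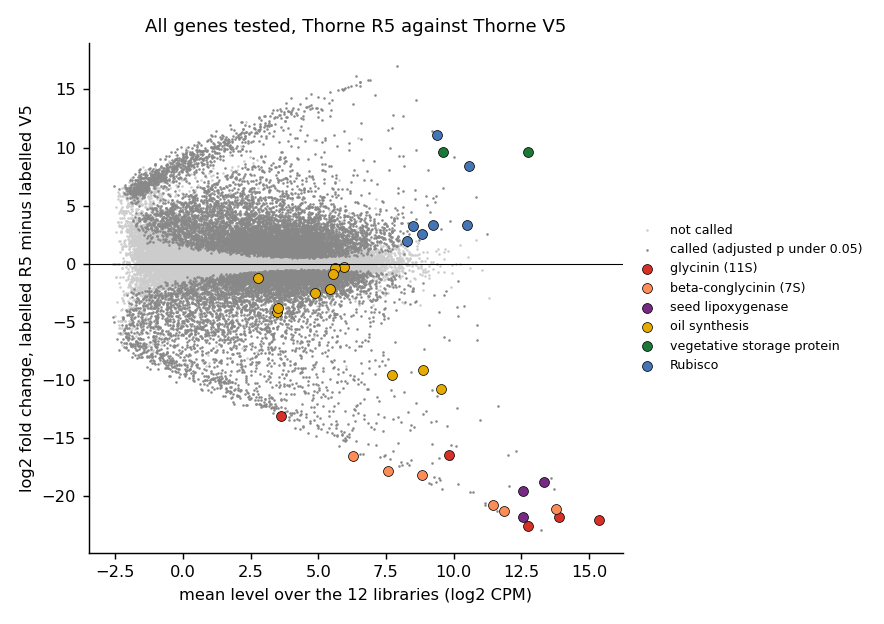
Log2 fold change (labelled R5 minus labelled V5) against mean level over the 12 libraries (log2 CPM) for the 38559 genes tested, with 6 gene families coloured. The storage globulins and seed lipoxygenases lie at the lower edge and the vegetative storage protein genes near 9.60, while the grey cloud spreads to both sides; fitted values of genes with 0 counts in a group depend on the prior count.

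The mutant libraries with the same stage labels showed the same division of markers. The seed markers held 3.34e-05% to 5.45e-05% of counts in the other 4 R5 libraries and 0.966% to 16.1% in the other 4 V5 libraries. The vegetative markers held 2.71% to 3.96% of counts in the other R5 libraries and 0.0364% to 0.0791% in the other 4 V5 libraries. Both Thorne V5 libraries, at 20.9% and 26.8%, lay above the mutants' V5 libraries in seed marker share, a difference that was not tested here.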

How the data were processed

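The authors deposited 1 table of raw read counts per library for 56044 gene IDs. The tools named in the submitters' processing notes are Bowtie, HISAT2 and HTSeq, without their roles or versions. Which genome build and gene models were used, whether strand was counted and how multiply matching reads were handled is not stated there, so counts of paralogs are uncertain. Groups were taken from the titles and not from the headings of the count columns. The counts were tested with edgeR 4.0.16 in R 4.3.3 (quasi-likelihood test, TMM factors, filterByExpr with a minimum count of 10 and a minimum total of 15) on all 12 libraries in 6 groups, with 6 residual degrees of freedom, and p-values were Benjamini-Hochberg adjusted over all 38559 genes tested. SEs were derived from the F statistic. Where a group held 0 counts, a fold is a lower bound against 3 counts per library. With 1 to 3 counts, the ratio of summed, TMM-scaled counts has an exact 95% interval. Such intervals cover counting error only, and Wilson intervals of the shares of counts were at most 0.0192 percentage points to either side.

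Alternatives were RLE factors, total counts alone, DESeq2 1.42.0, no filter, the 4 Thorne libraries alone, leaving out the single mutant V5 replicate 2 or each Thorne library, and the replicate number as a block. The fitting code was tested on simulated data. Genes named were those of the 12 lists, the 10 read most in each group and the 8 largest called changes per direction among genes averaging at least 1 log2 CPM whose groups did not overlap, and of IDs with no known name at most 2 per direction are printed, chosen after their values were seen. The comparison, members and lists were chosen with earlier results of these data known. None of the IDs matched the RefSeq gene table of Glycine_max_v4.0 directly (0 of 56044). Names come from general knowledge of published IDs, and only their chromosomes were checked.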

Additional observations from a re-analysis of the deposited data

How the results depend on the processing

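The seed markers called higher at V5 numbered 8 or 9 in every alternative, and the vegetative markers called higher at R5 numbered 9 except without a Thorne library (2 to 8). The count of all genes called was 14532 with RLE factors, 17467 in DESeq2, 13806 with no filter, 18642 with total counts alone and 21812 without the single mutant V5 replicate 2. It moved to 23306 (12215 higher at R5, 11091 higher at V5) with the 4 Thorne libraries alone. Without the single mutant V5 replicate 2, 11846 were higher at R5 and 9966 higher at V5. Among the named genes, 10 not called in the main fit were called without that library. With the 4 Thorne libraries alone, 15 were. A named gene that was not called may thus still differ. With total counts alone the split moved to 15545 higher at R5 and 3097 higher at V5. Without each Thorne library in turn the count was 7017 to 7813, with 3418 to 4768 higher at R5 and 2955 to 3599 higher at V5. A group is then 1 library, assumed to vary like the others. Of 50 called list genes, 31 kept their call in all 4 of these fits. With the replicate number as a block the count was 12761, and SWEET10a was the only named gene to lose its call. The numbers do not pair the libraries by any label, and the replicate differences at R5 and V5 correlated at 0.0208 over genes. Among 85 named genes 5 changed sign, all with total counts alone and none called: Glyma.02G227200 (0.57), Glyma.05G012300 (0.45), Glyma.04G050200 (0.42), Glyma.12G073900 (0.27) and Glyma.17G186600 (0.23). Below about 3 counts per library, absence at this depth cannot be told from a low level.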

Other observations

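Among IDs with no name in the sources used here, Glyma.10G200800 was at 2407 and 1506 CPM at R5 and 6.46 and 0.294 CPM at V5 (log2 fold change 9.17, SE 1.55, edgeR adjusted p 0.00282). Glyma.08G150400 was at 1361 and 1414 CPM at R5 and 7.61 and 2.5 CPM at V5 (log2 fold change 8.10, SE 0.86, edgeR adjusted p 0.000437). Both were among the 10 genes read most at R5. On the other side, Glyma.13G194400 was at 30189 and 39707 CPM at V5 with 0 counts at R5, at least 457000-fold higher, and Glyma.13G288100 was at 20134 and 25224 CPM with 0 counts at R5, at least 296000-fold higher. Their edgeR adjusted p was 0.0046 and 0.0036.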
